A study of Mus musculus with 51 samples.

Results

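Klf2, Klf4, Klf5 and Esrrb are 4 of the 34 transcription and signalling factors whose expression the series followed while mouse embryonic stem cells (mESCs) were differentiated, and they were taken by name from that factor table and from the table of 35591 genes counted in undifferentiated lines. Each was measured in 45 time course libraries and in 6 lines kept in 2i LIF, 51 libraries in all. The time course groups were wt and mat del cells at 6 times from day 0 to day 4 (daily, and also at day 2.5), with 3 or 4 libraries in each of the 12 groups, and the undifferentiated groups were 3 wt and 3 mat del lines in 2i LIF. Lines were male F1 cells between C57BL/6 and Castaneus mice, each derived from 1 blastocyst. Both genotypes carried a floxed or deleted maternal Smchd1 allele beside a wild-type paternal allele: wt lines came from floxed mothers without Cre, and mat del lines from floxed mothers in which Zp3-Cre, active in the growing oocyte, had deleted the gene. Maternal SMCHD1 protein was therefore missing in the mat del embryos, while the cells kept a paternal Smchd1 allele. 2i LIF is a medium with a MEK inhibitor, the GSK3 inhibitor CHIR99021 and the cytokine LIF. Day 0 cells, labelled DME LIF, had been moved in steps from 2i LIF toward a serum medium with LIF. Whether the inhibitors were fully removed before day 0 is not stated. Differentiation then ran in N2B27 with FGF, with CHIR99021 added at day 2 and GDF11 at day 3, a route toward neuromesodermal progenitors.

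Naive pluripotency, the state of the preimplantation epiblast, is held by a network of transcription factors fed by LIF through STAT3 and by inhibition of GSK3 and MEK. KLF2, KLF4 and KLF5 are zinc-finger proteins of the Krüppel-like family that bind GC-rich and CACCC-type DNA and can replace one another in part, and ESRRB is an orphan nuclear receptor that binds AGGTCA-type sites and whose gene is repressed by TCF7L1 when GSK3 is active. Klf4 is known as a gene induced by LIF and STAT3, and Klf2 as the member most tied to MEK inhibition, whereas Klf4 and Klf5 also serve in epithelia outside the stem cell state.

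The 4 genes lie apart in the genome (GRCm38): Klf2 at chr8:72319033-72321656 (plus strand, 3 merged exon blocks, 1847 exonic bases), Klf4 at chr4:55527143-55532466 (minus strand, 5 blocks, 3049 bases), Klf5 at chr14:99298691-99315036 (plus strand, 4 blocks, 5201 bases) and Esrrb at chr12:86361117-86521628 (plus strand, 10 blocks, 6047 bases). The bases just upstream of the starts of Klf2, Klf4 and Esrrb, from RefSeq on GRCm38.p6, are shown because these genes differed in their course, as described below. Capitals mark matches on either strand to GGGCGG (a GC box), to CACCC (a Krüppel-like factor box), to AGGTCA (a nuclear receptor site) or to TTCNNNGAA (a STAT-type palindrome, N being any base), with overlapping matches run together.
Klf2, chr8:72318812-72319032, plus strand: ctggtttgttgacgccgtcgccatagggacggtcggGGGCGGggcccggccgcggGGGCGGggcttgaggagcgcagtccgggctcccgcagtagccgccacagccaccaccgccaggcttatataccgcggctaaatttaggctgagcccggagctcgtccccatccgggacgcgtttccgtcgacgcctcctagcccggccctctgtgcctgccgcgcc
Klf4, chr4:55532476-55532725, minus strand: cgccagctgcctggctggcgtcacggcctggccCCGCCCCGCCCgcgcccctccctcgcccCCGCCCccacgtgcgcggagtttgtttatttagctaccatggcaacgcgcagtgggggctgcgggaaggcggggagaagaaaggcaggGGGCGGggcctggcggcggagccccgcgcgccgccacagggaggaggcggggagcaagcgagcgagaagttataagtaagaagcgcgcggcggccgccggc
Esrrb, outermost start, chr12:86360867-86361116, plus strand: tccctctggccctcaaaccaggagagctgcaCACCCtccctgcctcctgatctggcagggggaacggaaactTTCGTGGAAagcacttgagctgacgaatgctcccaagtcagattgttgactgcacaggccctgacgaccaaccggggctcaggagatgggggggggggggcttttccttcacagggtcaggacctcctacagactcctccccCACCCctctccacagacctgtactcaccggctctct
The Klf2 window of 221 bases held 2 matches to GGGCGG and the Klf4 window of 250 bases held 4, and neither held any of the other 3 motifs. The Esrrb window held no GGGCGG, 2 matches to CACCC and 1 to TTCNNNGAA. A second, inner Esrrb start had 1 match to CACCC, none to the other motifs and 52.0% G and C in its 250 bases. Of 32851 RefSeq promoters cut to 250 upstream bases, 32.7% held GGGCGG, 52.0% CACCC, 14.02% AGGTCA and 7.02% TTCNNNGAA. The G and C content was 71.5% for Klf2, 74.0% for Klf4 and 60.8% for Esrrb, against a median of 52.4% over all these promoters. Such matches describe letters and are not measured binding sites.

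Several time course libraries set limits on these genes. In mat del day 1 replicate 4 all 17 factors on chromosomes 9 and above had values of -3.90 or lower, whereas in each of the other 44 libraries the highest of them reached at least 4.88; its 17 factors on chromosomes 1 to 8 reached 8.19. Klf5 (chromosome 14) and Esrrb (chromosome 12) stood at -5.84 and -6.06 there and were in effect not measured. Klf2 (chromosome 8), at 3.57 there, lay within the other mat del day 1 libraries (3.08 to 4.34). Klf4 (chromosome 4), at 1.37, lay above them (-0.58 to 0.34). The count column equal to this library held 100% of its counts on chromosomes 1 to 8, against 44.1 to 48.5% in the other columns. How scaling to its total moved Klf2 and Klf4 was not tested. Chromosomes 1 to 8 held 44.1 to 45.1% of the counts in the 2i LIF lines. Tests are therefore given with all 45 libraries and with the 44 others. In 3 more libraries Ctnnb1 was at 4.52 to 4.77 against 6.11 to 7.85 in the remaining 41. They were wt day 2 replicate 3, mat del day 0 replicate 3 and mat del day 2.5 replicate 3. The highest factor on chromosomes 9 and above was at 4.88 to 5.31 in them, against 6.50 to 9.35. By their sample numbers these 3 were registered apart from all other libraries. Whether they were also prepared apart is not stated. A fit over the 41, added after the low Ctnnb1 levels were seen, is given where it changes a call made over the 44 libraries and for some of the values it moves. By the labels replicates 1 to 3 came from line 1 and replicate 4 from line 2 of each genotype. The time course p-values below treat libraries as independent, so they measure spread that is partly technical. By the same labels mat del cells at day 0 and day 2.5 came from line 1 only. The study instead describes the mat del libraries of both days as technical repeats of 2 separate lines. If the labels hold, every mat del change from day 0, and the day 0 genotype difference, rests on 1 mat del line at day 0. Which description holds was not tested.

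The names of the libraries were also checked. Of 42 time course libraries whose log2 RPKM values equalled a column of the count table, 35 equalled one with another name, 16 of these of the other genotype and 31 of another day. The truncated library equalled the column named mat del day 4 replicate 1. Under the names of the log2 RPKM table, which are used here, the highest Hox gene outside chromosomes 1 to 8 ran from -2.63 to -0.75 in 12 libraries of days 0 and 1 and from 3.05 to 5.56 in 15 of days 3 and 4. Under the names of the count table the same values ran from -2.72 to 5.26 and from -2.13 to 5.22. The days of the log2 RPKM names thus order the Hox genes and those of the count names do not. Genotypes and replicates could not be checked in this way. No count column named 2i LIF equalled a time course library (median residual at least 0.72 log2 units).

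Among the 2i LIF lines total counts ran from 27526359 to 126716460, and Smchd1, the deleted gene, had 107 to 124 CPM (counts scaled to library size) in wt and 63.7 to 90.7 CPM in mat del lines, in which the paternal allele is intact. The stem cell markers Pou5f1, Nanog, Sox2, Zfp42, Utf1, Dppa5a and Tdgf1 had mean levels of 70.1 to 3086 RPKM in these lines. The summed level of 8 fibroblast markers was 0.746 to 2.03 RPKM and that of 8 primitive endoderm markers 2.17 to 2.75 RPKM. The summed level of 8 trophectoderm markers was higher, at 18.1 to 28.8 RPKM.

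In undifferentiated cells all 4 genes were strongly expressed in both genotypes, and Esrrb and Klf2 had the highest means. Levels between genes are compared as RPKM (reads scaled to exon length and library size), computed here from the counts with TMM scaling. Esrrb had 90.4, 86.1 and 103 RPKM in wt lines 1, 2 and 3, and 96.3, 90.4 and 93.6 RPKM in mat del lines 1, 2 and 3. Klf2 had 90.4, 87.5 and 55.0 RPKM in the wt lines and 106, 87.6 and 42.5 RPKM in the mat del lines. Line 3 was thus the lowest for Klf2 in both genotypes, and the spread between lines of one genotype was wider than the gap between genotypes. Klf5 had 32.7, 39.6 and 51.6 RPKM in wt lines 1 to 3 and 43.4, 40.1 and 56.7 RPKM in mat del lines 1 to 3, with line 3 the highest in both. Klf4 had 38.6, 41.4 and 35.4 RPKM in wt lines and 47.5, 47.4 and 47.9 RPKM in mat del lines, so that every mat del line lay above every wt line. Averaged over the 6 lines, Esrrb stood at 93.2 RPKM and above 97.3% of the genes tested, Klf2 at 78.1 RPKM and above 96.7%, Klf5 at 44.005 RPKM and above 93.3%, and Klf4 at 43.0 RPKM and above 93.0%. Klf2 overlapped in range with each of the other 3 genes and was the lowest of the 4 in mat del line 3. Klf5 and Klf4 also overlapped, and Esrrb lay above both in every line.

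None of the 4 genes passed the test between genotypes in 2i LIF, and neither did any of 17696 genes tested (0% called; edgeR's quasi-likelihood test, Benjamini-Hochberg adjustment, 397 genes with an unadjusted p under 0.05, and 0 genes called by DESeq2). The log2 fold change of mat del over wt was 0.02 (95% interval -0.73 to 0.77) for Klf2, 0.18 (-0.27 to 0.62) for Klf5 and 0.01 (-0.24 to 0.25) for Esrrb. For Klf4 it was 0.31 (0.08 to 0.53), with an unadjusted p of 0.0133 and an edgeR adjusted p of 0.992. All 3 mat del lines exceeding all 3 wt lines, as for Klf4, was seen for 831 of the 17696 genes (4.7%), and lines that did not overlap in either direction for 1659 (9.38%). The intervals for Klf2 and Klf5 extend to 0.77 and 0.62 log2 units, while that for Esrrb lies within 0.25 log2 units of 0.

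**Figure D1:**
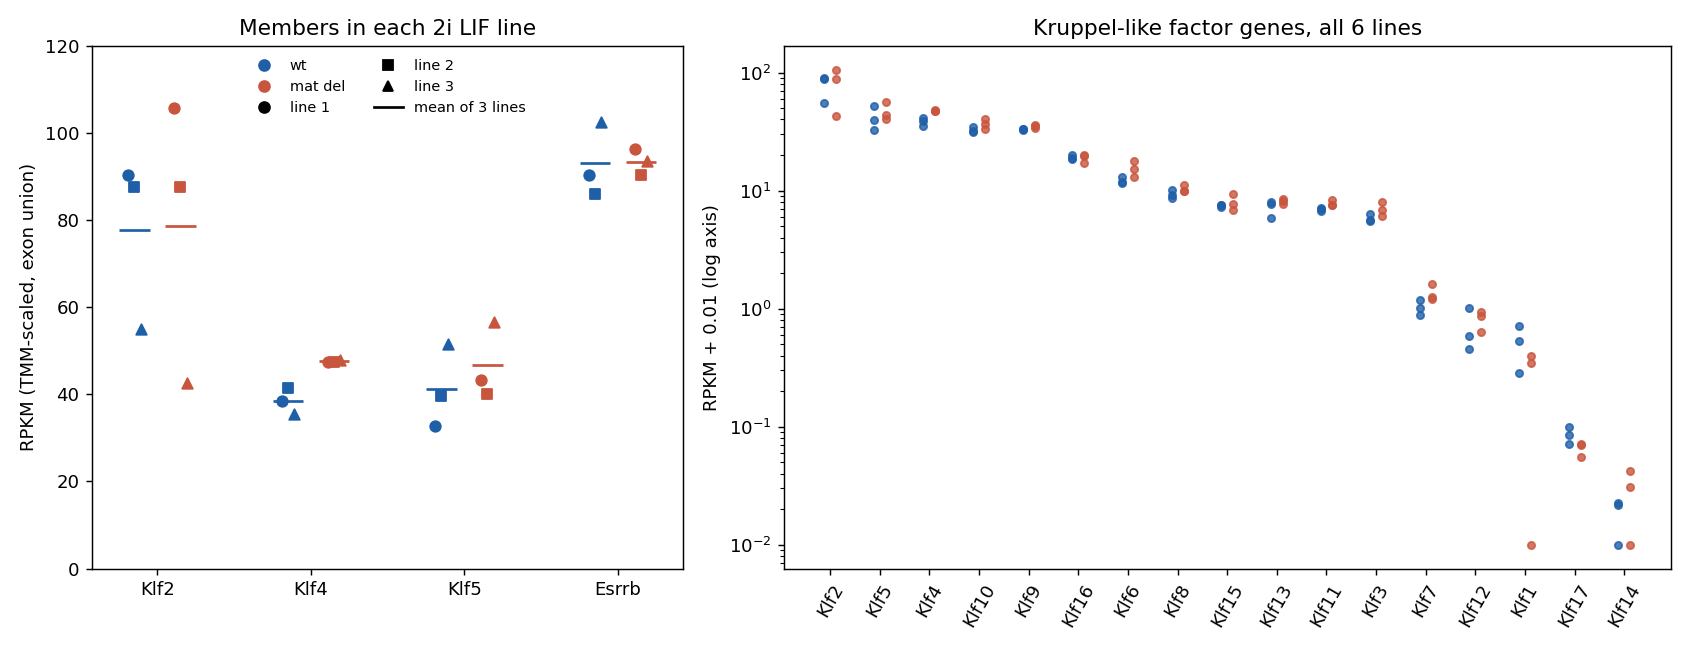
RPKM of Klf2, Klf4, Klf5 and Esrrb in each of the 3 wt and 3 mat del lines in 2i LIF (left, bars at the mean of 3 lines, marker shape for the line number) and RPKM + 0.01 of all 17 Krüppel-like factor genes on a log axis (right, 1 point a line). Klf4 was at 35.4 to 41.4 RPKM in wt and 47.4 to 47.9 in mat del (edgeR adjusted p = 0.992; 9.38% of genes tested did not overlap between the groups), Klf2 was lowest in line 3 of both, and Klf2, Klf5 and Klf4 had the highest family means.

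Within the Krüppel-like family Klf2, Klf5 and Klf4 had the highest mean levels in these lines. The other 14 listed family genes had mean levels from 0.00812 RPKM (Klf14, which was below the count filter) to 32.7 RPKM (Klf10) and 33.0 RPKM (Klf9) in wt lines, and to 36.8 RPKM (Klf10) in mat del. In wt line 1, Klf9 (33.4 RPKM) was above Klf5. Of the 13 tested, 0 were called, 10 were higher and 3 lower in mat del, and their median log2 fold change was 0.17, against -0.01 over all genes tested. The extremes were Klf7 (0.41) and Klf1 (-0.89), and Klf6, an early-response family member, had 0.33 with an unadjusted p of 0.0358. Among 6 Esrrb relatives and partners 5 were tested and 0 called, with a median of 0.09, a highest value of 0.33 for the germ cell nuclear factor gene Nr6a1 and a lowest of -0.29 for Nr0b1 (DAX1, an orphan receptor of the naive network); Ncoa3, a coactivator of ESRRB, had 0.28 with an unadjusted p of 0.0495.

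Among the other genes of the naive network and its inputs in 2i LIF, none passed between genotypes. No gene was called (0 in each list by edgeR) among 18 other naive network genes (median log2 fold change 0.02, from -0.50 for Tdh to 0.41 for Dppa2), 8 core pluripotency genes (median -0.09, from -0.98 for Dnmt3l to 0.36 for Sall4) and 9 genes of the LIF-STAT3 pathway (median 0.09, from -0.04 for Stat3 to 0.44 for Bcl3). The same held for 9 readouts of MEK-ERK signalling (median -0.17, from -0.77 for Spry4 to 0.19 for Egr1), 8 tested genes of the Wnt and Tcf7l1 axis (median 0.05, from -0.34 for Sp5 to 0.40 for Tcf7l1) and 12 formative and primed genes (median -0.002, from -0.70 for Dnmt3b to 0.11 for Fgf15). An unadjusted p under 0.05 was found for Dnmt3l, Dnmt3b, Tdh, Prdm14 and Pim1 in these lists. Markers of other cell types gave 0 calls as well: 7 tested primitive endoderm genes had a median of 0.27 (Sox17 -0.61, Sox7 0.57), 5 trophectoderm genes 0.12 (Tead4 -0.20, Hand1 0.69), 3 fibroblast genes -0.04 (Thy1 -0.91, Pdgfrb 0.50), and the 1 two-cell-like gene tested, Zscan4d, 0.02.

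Over differentiation the 4 genes did not keep together. Klf2 and Esrrb fell to their lowest level at day 4, whereas Klf4 fell fastest, reached its lowest mean at day 2 and was higher again at day 4, and Klf5 was lowest at day 2 and higher again at day 4. Its mean at day 4 was 3.43 in wt against 4.35 at day 0, and 3.83 against 3.79 in mat del. The values are the deposited log2 RPKM, in which 1 unit is a doubling. In bulk RNA, fewer cells holding a transcript and less transcript per cell cannot be told apart.

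**Figure D2:**
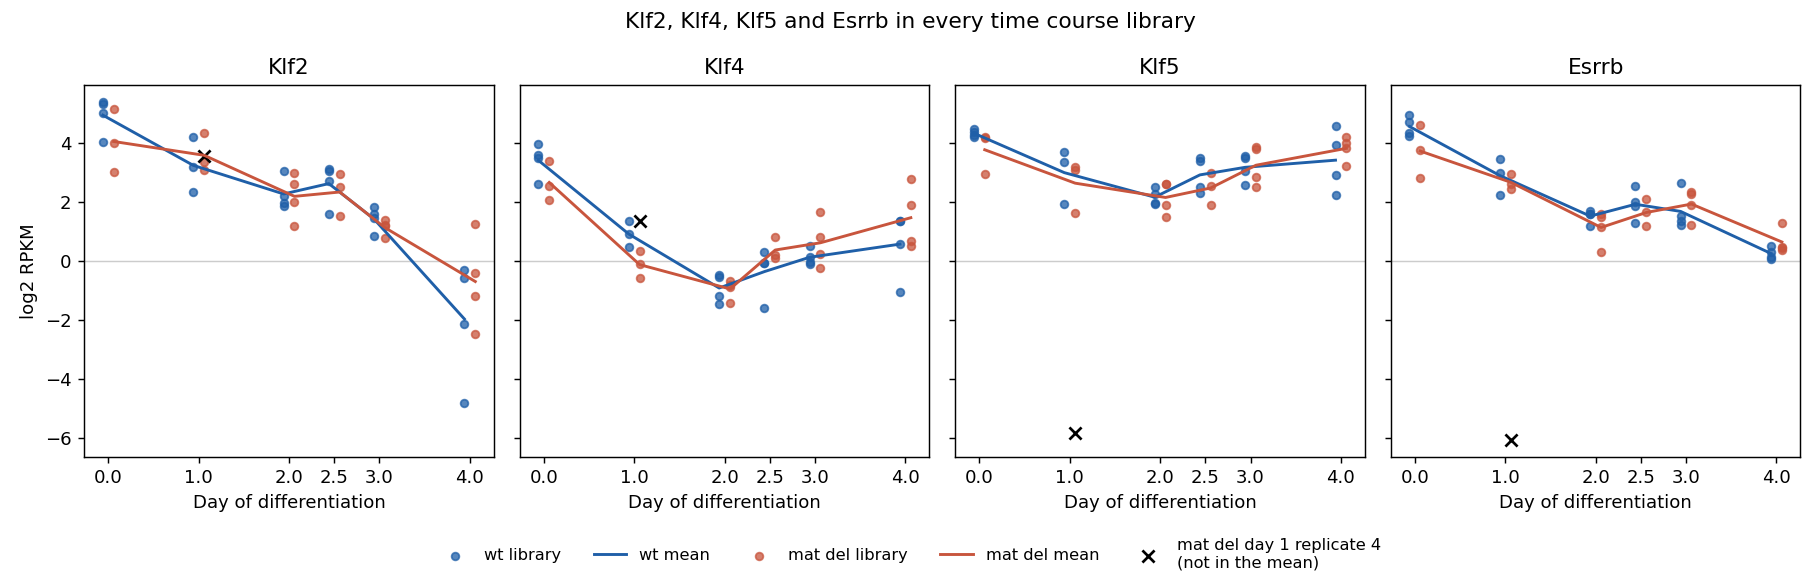
log2 RPKM of the 4 genes in each of the 45 time course libraries against the day of differentiation, with lines through the group means of wt and mat del. Black crosses are mat del day 1 replicate 4, left out of the means; Klf2 ends below 1.28 at day 4, while Klf5 lies between 2.27 and 4.605 there.

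Klf2 had 5.33, 4.07, 5.03 and 5.41 log2 RPKM in wt replicates 1 to 4 at day 0, and 5.16, 4.02 and 3.02 in mat del replicates 1 to 3. It passed through means of 3.26, 2.28, 2.64 and 1.43 at days 1, 2, 2.5 and 3 in wt and 3.60 (without replicate 4), 2.20, 2.35 and 1.14 in mat del. At day 4 it had -2.15, -0.31, -4.83 and -0.57 in wt and -0.41, 1.28, -2.46 and -1.16 in mat del. Every day 4 library of a genotype lay below every day 0 library of that genotype. Most of the 34 factors likewise did not overlap between day 0 and day 4, lower or higher, in either genotype. The day 4 values also spread widely, with an SD of 2.08 in wt and 1.56 in mat del (n = 4 each). The lowest, wt replicate 3, lay close to the lowest Hox gene value in that library (-5.44), where genes have few or no reads. From day 0 to day 4 Klf2 fell by 6.92 ± 0.71 (SE) log2 units in wt and by 4.75 ± 0.76 in mat del, with limma adjusted p of 1.01e-10 and 1.19e-06 over 45 libraries and 3.4e-11 and 6.27e-07 over 44. Leaving out wt day 4 replicate 3 gave a fall of 5.97 in wt, and the mat del difference over the 41 libraries was -5.28.

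Klf2 fell further at the last step. From day 3 to day 4 it fell by 3.40 ± 0.71 log2 units in wt (limma adjusted p = 0.000421, and 0.000326 over 44 libraries), or by 2.44 without wt day 4 replicate 3. In mat del the difference over that step was -1.83 ± 0.71 (adjusted p = 0.0581 over 45 and 0.0367 over 44 libraries), so the call depended on whether the truncated library was used. That mat del difference was -1.24 without mat del day 4 replicate 3 and -2.49 without mat del day 4 replicate 2. From day 0 to day 1 the wt difference was -1.70 ± 0.76 and the mat del difference -0.48 ± 0.76, and neither passed (adjusted p = 0.155 and 0.702). That mat del difference was -0.99 over the 41 libraries and did not pass either (limma adjusted p = 0.526).

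Esrrb had 4.98, 4.24, 4.74 and 4.34 log2 RPKM in wt day 0 replicates 1 to 4 and 4.61, 3.79 and 2.82 in mat del day 0 replicates 1 to 3. Its means at days 1, 2, 2.5 and 3 were 2.91, 1.53, 1.94 and 1.69 in wt, and 2.68 (without replicate 4), 1.15, 1.66 and 1.94 in mat del. At day 4 it had 0.53, 0.07, 0.31 and 0.14 in wt and 0.48, 1.31, 0.37 and 0.47 in mat del. The course was a fall over the first days, a plateau between day 2 and day 3, and a further fall. Day 0 and day 4 did not overlap in either genotype, as for most of the 34 factors. From day 0 to day 4 Esrrb fell by 4.31 ± 0.97 log2 units in wt and by 3.09 ± 1.04 in mat del (limma adjusted p = 0.000111 and 0.00814 over 45 libraries, 7.8e-12 and 8.3e-08 over 44). The mat del value was -2.65 (adjusted p = 0.0517) without mat del day 0 replicate 1. Over the 44 libraries the standard errors were 0.40 and 0.43, and over the 41 libraries the mat del difference was -3.55.

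Over the 44 libraries Esrrb fell at 3 of the 5 steps in wt and 2 of the 5 in mat del. The wt differences were -1.67 from day 0 to day 1, -1.38 from day 1 to day 2 and -1.43 from day 3 to day 4 (limma adjusted p = 0.00505, 0.0498 and 0.00642 over 44 libraries, and 0.246, 0.626 and 0.268 over 45). In mat del Esrrb fell by 1.53 from day 1 to day 2 and by 1.29 from day 3 to day 4 (adjusted p = 0.0363 and 0.0153 over 44 libraries). With the truncated library the mat del step from day 1 to day 2 had the opposite sign (0.65), and the step from day 0 to day 1 was -3.24 in place of -1.06 (adjusted p = 0.0321 and 0.19). Over the 41 libraries the mat del step from day 0 to day 1 was -1.52 and passed (adjusted p = 0.0233), while the wt step from day 1 to day 2 did not (-1.27, adjusted p = 0.0993).

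Klf4 had 3.97, 2.61, 3.51 and 3.61 log2 RPKM in wt at day 0 and 3.41, 2.55 and 2.07 in mat del. At day 1 it already had 0.48, 1.37 and 0.92 in wt replicates 1, 2 and 4, and -0.10, 0.34 and -0.58 in mat del replicates 1 to 3. By day 2 all 8 libraries were below 0, at -0.46, -0.54, -1.18 and -1.45 in wt and -0.66, -0.80, -0.89 and -1.41 in mat del. The fall from day 0 to day 1 left no day 1 library of either genotype at a day 0 value, also with mat del day 1 replicate 4 at 1.37. This was not particular to Klf4. In wt it also held for Esrrb, Klf5 and several other factors, Nr0b1 and Tfcp2l1 among them, while Klf2 overlapped. In mat del, without replicate 4, it held for Nr0b1 and Tfcp2l1 among others, while Klf2, Klf5 and Esrrb overlapped. Klf4 fell by 2.50 ± 0.60 log2 units in wt and 2.42 ± 0.60 in mat del over that day (limma adjusted p = 0.00524 and 0.00799, and 0.002 and 0.00111 over 44 libraries). It was the only one of the 4 genes called at this step in wt over 45 libraries. The mat del call was lost without mat del day 0 replicate 1 (-2.05, adjusted p = 0.0693). That mat del difference was -3.09 over the 41 libraries (limma adjusted p = 0.00159). From day 1 to day 2 Klf4 differed by a further -1.83 in wt, which passed over 44 libraries only (adjusted p = 0.0498, 0.131 over 45 and 0.0993 over 41).

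After day 2 Klf4 did not stay down. At day 4 it had 1.38, -1.03, 0.60 and 1.38 log2 RPKM in wt and 0.52, 2.78, 1.91 and 0.70 in mat del. All 4 mat del libraries at day 4 were above all 4 at day 2, and 3 of the 4 wt libraries were. The exception, wt replicate 2, was 1 of the 6 libraries whose lowest Hox value lay above -4. In mat del Klf5 at day 4 was also above day 2 in every library. Most of the 34 factors did not overlap between day 2 and day 4, lower or higher, in either genotype. Against day 0, Klf4 at day 4 was still lower by 2.85 ± 0.55 in wt (adjusted p = 1.6e-05, and 3.83e-06 over 44 libraries). In mat del the difference was -1.20 ± 0.60, with adjusted p = 0.0652 over 45 and 0.0449 over 44 libraries. That difference also passed without mat del day 0 replicate 3, 1 of the 3 libraries with a low Ctnnb1 level (-1.50, adjusted p = 0.0416) or mat del day 4 replicate 2 (-1.63, adjusted p = 0.0157).

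Klf5 had the flattest course. It had 4.398, 4.29, 4.48 and 4.22 log2 RPKM in wt at day 0 and 4.22, 4.18 and 2.96 in mat del. At day 2 it had 1.97, 2.50, 1.95 and 2.28 in wt and 1.49, 1.92, 2.61 and 2.63 in mat del, the lowest group means of its course apart from the truncated library. At day 4 it had 2.92, 2.27, 3.94 and 4.605 in wt and 3.23, 3.86, 4.22 and 4.03 in mat del. Klf5 did not pass between day 0 and day 4 in either genotype: the log2 difference was -0.92 (95% interval -1.88 to 0.05 over 44 libraries) in wt and 0.05 (-0.99 to 1.09) in mat del, with adjusted p of 0.402 and 0.964 over 45 libraries and 0.0731 and 0.926 over 44. In wt, 3 of the 4 day 4 libraries lay below all 4 day 0 libraries, and replicate 2 was within the day 2 range. Over the 41 libraries the mat del difference was -0.36 (adjusted p = 0.58). The call of a Klf5 fall from day 0 to day 1 in mat del over 45 libraries (-3.26, adjusted p = 0.0321) was lost without the truncated library, at -1.13 and adjusted p = 0.262. It was also lost without mat del day 0 replicate 1 or 2, as was the Esrrb call at that step (adjusted p = 0.0917 to 0.174 over both genes). Centred on Ctnnb1 and Gsk3b, 2 factors of the Wnt pathway, Klf5 differed from day 0 to day 4 by -1.53 in wt (adjusted p = 0.0135, 44 libraries). In mat del it differed by -1.002 (adjusted p = 0.133, 44 libraries). The mean of these 2 factors was itself 0.61 higher at day 4 than at day 0 in wt and 1.05 higher in mat del. The mat del day 0 mean includes replicate 3, with Ctnnb1 at 4.52, and centring without that library was not run.

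A comparison of day 2 with day 4, added after these values were seen, put numbers on the later courses. Klf4 was higher at day 4 by 1.49 ± 0.55 log2 units in wt and 2.42 ± 0.55 in mat del (limma adjusted p = 0.0183 and 0.000229, and 0.00895 and 7.22e-05 over 44 libraries). The wt call for Klf4 was lost without wt day 2 replicate 4, wt day 4 replicate 1 or wt day 4 replicate 4 (1.22 to 1.31, adjusted p = 0.0631 to 0.0742). Klf5 was higher by 1.26 in wt and 1.67 in mat del, with adjusted p of 0.27 and 0.126 over 45 libraries and 0.0164 and 0.00196 over 44. Klf2 moved the other way, by -4.25 and -2.89 (adjusted p = 2.12e-06 and 0.000463 over 45 libraries). Esrrb had -1.27 in wt and -0.49 in mat del, and only the wt value passed, over 44 libraries (adjusted p = 0.00473). Centred on Ctnnb1 and Gsk3b, the wt rises were 0.60 for Klf4 and 0.37 for Klf5 and no longer passed (adjusted p = 0.327 and 0.553). The mat del rises of 2.01 and 1.26 still passed (adjusted p = 0.00132 and 0.0410). Ctnnb1 and Gsk3b themselves averaged 0.89 log2 units higher at day 4 than at day 2 in wt and 0.41 higher in mat del. The wt day 2 mean includes replicate 3, with Ctnnb1 at 4.63, and centring without that library was not run. Uncentred over the 41 libraries, the wt rises were 1.40 for Klf4 and 1.18 for Klf5 (limma adjusted p = 0.0232 and 0.0342).

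**Figure D3:**
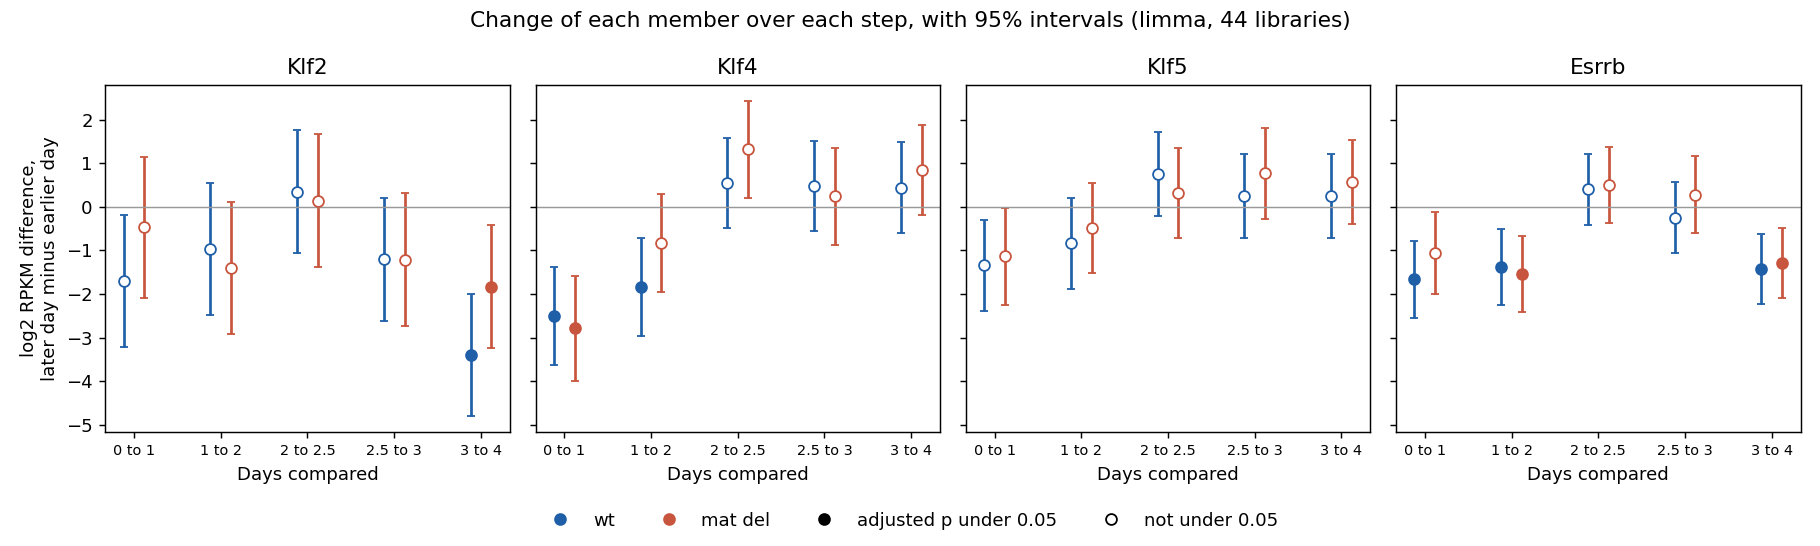
log2 RPKM difference of each gene over each of the 5 steps between sampled days, later minus earlier, in wt and mat del, with 95% intervals from limma over 44 libraries; filled points had an adjusted p under 0.05. Klf4 fell at the first step in both genotypes and at the second in wt, Klf2 at the last (by 3.40 in wt and 1.83 in mat del), Esrrb at the second and last in both and the first in wt, and Klf5 at none. Over 41 libraries the second step in wt did not pass for Klf4 or Esrrb.

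From day 0 to day 4, 3 of the 4 fell in wt in either fit and 2 fell in mat del over 45 libraries or 3 over 44, beside 79.4% (82.4% over 44) and 73.5% (85.3%) of the 34 factors called. Of the 15 other pluripotency factors in the table (Sox2, which neural progenitors also express, not counted), 13 fell in wt and 12 in mat del over 45 libraries and 0 rose. The median difference of the 4 genes over 45 libraries was -3.58 in wt and -2.14 in mat del, against -4.17 and -3.20 for those 15 and -1.45 and -1.17 for all 34. From day 0 to day 1, 1 of the 4 was called in wt over 45 libraries and 2 over 44 (5.88% and 17.6% of factors), and 3 in mat del over 45 and 1 over 44 (17.6% and 2.94%). From day 1 to day 2 none of the 4 was called over 45 libraries in either genotype (0% of factors), and over 44 there were 2 in wt (5.88%) and 1 in mat del (2.94%).

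None of the 4 was called from day 2 to day 2.5, the step at which CHIR99021 had been added and at which 38.2% of factors in wt and 35.3% in mat del were, or from day 2.5 to day 3 (2.94% of factors in wt over 45 libraries, 5.88% over 44, and 0% in mat del). From day 3 to day 4, 1 of the 4 was called in wt over 45 libraries and 2 over 44 (20.6% and 41.2% of factors), and 0 and 2 in mat del (20.6% and 38.2%). Between day 2 and day 4, 2 of the 4 were called in each genotype over 45 libraries, and 4 in wt and 3 in mat del over 44, beside 61.8% and 58.8% of factors over 45 and 76.5% and 79.4% over 44.

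The order of the levels within a library turned over during the 4 days. At day 0 the mean order in wt was Klf2, Esrrb, Klf5, Klf4, and the first 3 overlapped in range; in mat del it was Klf2, Klf5, Esrrb, Klf4, all overlapping with their neighbour. At day 2, Klf2 and Klf5 led in both genotypes with a mean gap of 0.11 in wt and 0.04 in mat del, Esrrb followed, and Klf4 lay apart below Esrrb by 2.44 and 2.09 log2 units. By day 4 the order was Klf5, Klf4, Esrrb, Klf2 in both genotypes. Klf5 then lay above Klf4 in all 8 libraries with no overlap of ranges in either genotype, by 2.85 and 2.35 on average, while Klf4 and Esrrb overlapped.

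Differences taken within a library do not depend on its scaling, unless a gene is near the level of genes without reads, which varies with depth. Klf2 was near that level in wt day 4 replicate 3 (-4.83, against a lowest Hox value of -5.44). This library had the lowest Klf2 minus Klf5 of its group, at -8.77. In wt, Klf2 minus Klf5 went from 0.61 ± 0.62 on day 0 to -5.39 ± 2.55 on day 4 (SD over 4 libraries each). In mat del it went from 0.28 ± 0.59 over 3 libraries to -4.52 ± 1.79 over 4. At day 4 Klf2 was below Klf5 in 8 of 8 libraries. Klf5 minus Esrrb went from -0.23 to 3.17 in wt and from 0.04 to 3.18 in mat del, and Klf2 minus Klf4 from 1.53 to -2.54 and from 1.39 to -2.17. In 2-sided exact permutation tests of the change between day 0 and day 4 over 6 gene pairs in 2 genotypes (12 tests, added after the values were seen), these 3 pairs had p = 0.0286 in wt and 0.0571 in mat del, the smallest that these group sizes allow, and every adjusted p was 0.0686 or higher.

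**Figure D4:**
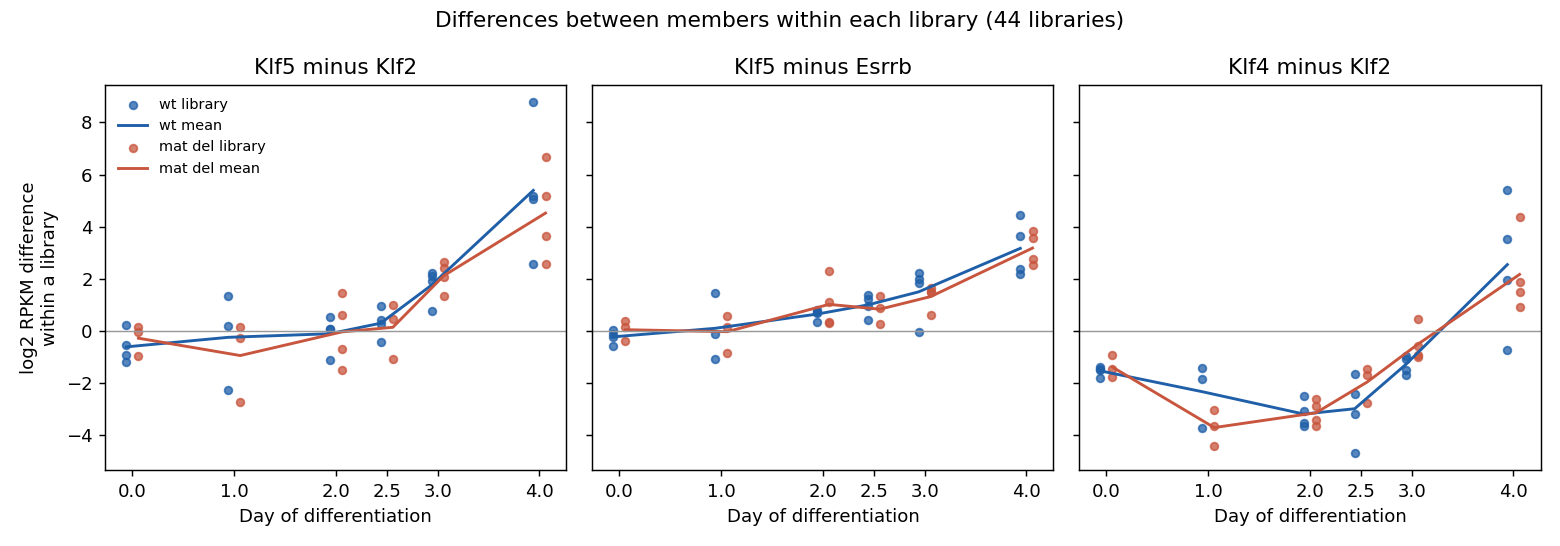
Difference in log2 RPKM between 2 genes of the same library, against the day of differentiation, in 44 libraries with lines through the group means. Klf5 minus Klf2 rises from about 0 to between 2.57 and 8.77 at day 4 and Klf5 minus Esrrb to between 2.20 and 4.46, while Klf4 minus Klf2 is lowest near days 1 to 2.5 and above 0 in 7 of 8 day 4 libraries.

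By genotype, none of the 4 genes passed the test at any day. None of the 4 and none of the 34 factors was called at any of the 6 days (0% over either fit, limma), and at no step did the change differ between genotypes (0 of 4, and 0% of factors). At day 1 unadjusted limma p was under 0.05 for 7 of the 34 factors over 45 libraries and for 0 over 44, without the truncated library. At day 2.5 it was for 0 over 45 and 1 over 44, and at the other days for none in either fit. At day 0 the mat del means were lower for all 4, by -0.89 ± 0.76 (SE) for Klf2, -0.75 ± 0.60 for Klf4, -0.56 for Klf5 and -0.84 for Esrrb (adjusted p = 0.758 for each, and 0.564 over 44 libraries). Ctnnb1 and Gsk3b were on average lower as well, by -0.55, and centred on them the 4 differences were -0.35, -0.20, -0.014 and -0.29. The mat del day 0 replicate 3 library, 1 of the 3 with a low Ctnnb1 level, had the lowest value of the 7 day 0 libraries for each gene. Over the 41 libraries the differences were -0.37, -0.45, -0.15 and -0.38. At day 4 the mat del means were higher for all 4, by 1.27 for Klf2 (95% interval -0.13 to 2.68 over 44 libraries), 0.90 for Klf4 (-0.14 to 1.93), 0.40 for Klf5 (-0.56 to 1.37) and 0.39 for Esrrb (-0.42 to 1.20), with adjusted p of 0.739 for Klf2 and Klf4 and 0.978 for Klf5 and Esrrb. Leaving out the 6 libraries whose lowest Hox value lay above -4 moved the day 4 Klf4 difference to -0.07.

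The change from day 0 to day 4, mat del minus wt, was 2.17 log2 units for Klf2 (0.10 to 4.24 over 44 libraries), 1.65 for Klf4 (0.12 to 3.18), 1.23 for Esrrb (0.03 to 2.42) and 0.96 for Klf5 (-0.46 to 2.38). Unadjusted p was 0.0407, 0.0351, 0.0445 and 0.178, and limma adjusted p was 0.504 for the first 3 and 0.628 for Klf5, so that none held over the 34 factors tested. Leaving out 1 of the 45 libraries at a time gave 1.21 to 2.76 for Klf2, 1.11 to 2.01 for Klf4, 0.77 to 1.66 for Esrrb and 0.55 to 1.35 for Klf5. The same 3 mat del day 0 libraries, all of line 1 by the labels, enter every one of these values. Over the 41 libraries, without replicate 3 of them, the values were 1.64, 1.35, 0.77 and 0.55 in the same order. Unadjusted p was then 0.143, 0.105, 0.192 and 0.459, so none was under 0.05.

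The factors most like each gene over the 12 group means were named by Pearson's r, as a description; the points share libraries and days. For Klf2 they were Gdf3 (r = 0.98), a TGF-beta family ligand of stem cells, then Utf1 (0.95) and Sox2 (0.95); Gdf3 also led over the 45 libraries (0.94). For Klf4 they were Tfcp2l1 (0.85), a LIF-responsive naive factor, Esrrb (0.69) and Tbx3 (0.68), and with the truncated library left out of the means Klf5 came first at 0.90. For Klf5 the leaders over all libraries were Wnt7b (0.92), Ctnnb1 (0.80) and Tbx3 (0.69), but Wnt7b and Ctnnb1 fell to 0.77 and 0.41 without the truncated library, and Klf4 (0.90), Tbx3 (0.81) and Tfcp2l1 (0.78) then led. For Esrrb they were Nr0b1 (0.92), Pecam1 (0.87) and Fbxo15 (0.87), and without that library Nr0b1 (0.98), Zfp42 (0.95) and Sall4 (0.93). Among the 4 genes themselves, Klf2 and Esrrb had r = 0.89 and Klf4 and Klf5 r = 0.90 over the means without it, whereas Klf2 and Klf5 had 0.00.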

How the data were processed

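RNA-seq was processed by the authors, who trimmed reads with Trim Galore 0.4.4 and mapped them with HISAT2 2.0.5 to GRCm38.p6, per the labels and the study's methods, and quantified genes in SeqMonk. The deposited log2 RPKM values of 34 factors and of Hox genes cover the 45 time course libraries; the deposited raw read counts cover 35591 genes in 51 libraries. A gene without reads received a small value that depends on depth. The lowest Hox value per library ran from -9.21 to -1.10 and need not be that value. In wt day 2 replicate 4 it was -1.10 while the lowest factor was at -4.55. The 6 libraries whose lowest Hox value lay above -4 are called shallow below, by this rule alone. Depth in reads was taken from counts for the 2i LIF lines only. For 42 of the 45 time course libraries, log2 RPKM equalled 1 count column (median residual under 0.0001), but only 7 equalled the column of the same name, so the names of either table may be wrong; no column was renamed and the time course counts were not used.

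Time course differences were tested with limma 3.58.1 in 1 fit of 12 group means over 45 libraries, adjusted over 34 factors in each comparison, and repeated over 44. The fits took the deposited log2 values as they were. Counts of the 6 lines were tested with edgeR 4.0.16 (TMM, filterByExpr, quasi-likelihood), and RPKM used GENCODE exon unions on GRCm38. DESeq2 1.42.0 was an alternative. Scripts were tested on simulated data. Within-library differences between 2 of the 4 genes were compared between day 0 and day 4 by exact permutation with scipy 1.17.1. Labels place replicates 1 to 3 in line 1 and replicate 4 in line 2, and the study describes replicates as technical repeats of 2 lines, so p-values measure spread that is partly technical, and 2-sided tests were used throughout. In 2i LIF the deviations of same-numbered wt and mat del lines correlated in all 3 pairs (r from 0.28 to 0.47), so a blocked fit was run beside the unblocked one; it called 0 genes of the 4. The 4 genes and all gene lists were chosen with earlier results of these data known. The text names the 4 genes, the 3 factors most like each, list genes with the highest or lowest change or an unadjusted p under 0.05, and Smchd1. Alternatives were other scalings, filters, groups in the fit, a pseudocount, a replicate block, each library left out and, chosen after the data were seen, a fit over 41 libraries.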

Additional observations from a re-analysis of the deposited data

Results flagged for a closer look

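In 36 groups of 4 libraries (9 groups for each of the 4 genes), the gap of the extreme library was set against the range of its group, a check that chance trips in about 1 of 20 groups; 2 stood out, both for Esrrb. In mat del day 1 replicate 4, Esrrb was at -6.06 log2 RPKM while the other 3 libraries lay between 2.46 and 2.96; all 17 factors on chromosomes 9 and above were at the level of genes without reads there. In mat del day 4 replicate 2, Esrrb was at 1.31 while the others lay between 0.37 and 0.48. The same library was also the highest of its group for Klf2 (1.28) and Klf4 (2.78). It is 1 of the 6 libraries whose lowest Hox value lay above -4, and the part of that in the result was not tested.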

How the results depend on the processing

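Over 976 member values under alternatives, 862 kept their direction and side of the threshold, 28 lost and 56 gained the threshold and 30 changed sign; of 558 counts of called members, 506 stayed within 1.5 times. The cause was not tested in any case below. From day 0 to day 1 in wt (1 called) the count was 3 on the log2(RPKM + 1) scale, 4 with only the groups compared in the fit (45 or 44 libraries), 0 centred on Ctnnb1 and Gsk3b and 2 centred over 44; in mat del (3 called) it was 0 with only those groups, 0 centred, 1 in line 1 only and 1 with only those groups over 44. From day 1 to day 2 in mat del (0 called) it was 3 centred and 1 centred over 44. From day 2 to day 2.5 in mat del (0) it was 1 centred over 44 and 1 without the shallow libraries. From day 3 to day 4 in wt (1) it was 2 with only the groups compared (45 or 44), 2 centred over 44 and 2 in line 1 only; in mat del (0) it was 1 centred, 2 centred over 44, 1 without shallow libraries and 1 in line 1 only. From day 2 to day 4 in mat del (2) it was 1 centred and 4 centred over 44. Over 41 libraries, without those with a low Ctnnb1 level (chosen after seeing the data), the counts were 2 from day 0 to day 1, 2 from day 3 to day 4 and 4 from day 2 to day 4 in wt, and 1 from day 1 to day 2 and 2 from day 3 to day 4 in mat del.

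Same-numbered time course samples shared only a number: deviations of 20 pairs had r from -0.40 to 0.70 (15 above 0.1). With the replicate block, the count was 2 (4 over 44 libraries) from day 0 to day 1 in wt, 2 over 44 from day 1 to day 2 and from day 3 to day 4 in wt, 4 over 44 from day 2 to day 4 in wt, 1 over 44 from day 0 to day 1 and from day 1 to day 2 in mat del, and 1 (2 over 44) from day 3 to day 4 in mat del. In 2i LIF the replicate block gave Klf2 -0.046 and changed no call.

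Changes of sign were otherwise Klf5 from day 3 to day 4 in wt, line 1 only (-0.038); Klf2 from day 0 to day 1 in mat del, centred (1.84); from day 1 to day 2 in mat del, Klf5 centred (-1.32), centred over 44 (-0.73) and line 1 only (-0.64), and Esrrb on log2(RPKM + 1) (-0.47), centred (-2.31), centred over 44 (-1.78) and line 1 only (-1.26). Klf5 from day 0 to day 4 in mat del was -1.002 centred and -0.017 in line 1 only, and Klf4 between genotypes at day 4 was -0.073 without shallow libraries. Over 41 libraries, Klf5 and Esrrb from day 1 to day 2 in mat del were -0.49 and -1.53, and Klf5 from day 0 to day 4 in mat del was -0.36.

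Leaving out 1 library at a time gave -1.53 to 1.47 for Esrrb and -0.49 to 2.53 for Klf5 from day 1 to day 2 in mat del, -1.002 to 0.073 for Klf2 from day 0 to day 1 in mat del, -0.36 to 0.26 for Klf5 from day 0 to day 4 in mat del, -0.15 to 0.63 for Klf5 from day 3 to day 4 in wt, and -0.25 to 0.32 for Klf2 and -0.043 to 0.082 for Esrrb in 2i LIF. Counts ran from 0 to 3 from day 0 to day 1, 0 to 1 from day 1 to day 2, 0 to 2 from day 3 to day 4 and 1 to 3 from day 0 to day 4 in mat del, from 1 to 2, 0 to 2, 1 to 2 and 1 to 4 for days 0 to 1, 1 to 2, 3 to 4 and 2 to 4 in wt, and from 0 to 2 between genotypes at day 1 (2 without mat del day 1 replicate 2). Depth limits the lowest values: wt day 4 replicate 3 holds Klf2 at -4.83 where the lowest Hox value is -5.44, so the size of that fall is uncertain.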
